A study of Homo sapiens with 4 samples.

Results

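The 10 genes described here encode the FGF, MET, PDGF and ERBB receptor tyrosine kinases that are studied in rhabdomyosarcoma, a tumour of the skeletal muscle lineage. They are FGFR1, FGFR2, FGFR3, FGFR4, MET, PDGFRA, PDGFRB, EGFR, ERBB2 and ERBB3. They were taken by name, whatever their values, from the 39323 genes in each table, and all 10 were found. This list of receptors was chosen with earlier results of these data known. RNA was sequenced from RD and JR1, both established lines of fusion-negative rhabdomyosarcoma (FN-RMS, which lacks a PAX-FOXO1 fusion gene), after infection with a lentivirus that carried a short hairpin RNA. The hairpin either targeted SKP2 (shSKP2), which encodes a substrate-recognition subunit of an SCF ubiquitin ligase, or had no target (shSCR). The infected cells were selected with puromycin as a population, 1 hairpin against SKP2 was used, and no library of uninfected cells was analysed here. There was 1 poly-A selected library for each line and hairpin, 4 in all, so the differences below could not be set against the spread of replicates, and they carry no p-values.

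Expression is given as TPM, a share of all transcripts corrected for transcript length, which allows levels of different genes to be compared within a library. TPM keep no read number, so the depth behind each value is unknown. For each line the change of a gene is the log2 of (TPM + 1) with shSKP2 divided by (TPM + 1) with shSCR, and it understates the change of low genes. The 12985 genes whose mean reached 1 TPM were compared, and a gene is said to have risen or fallen when its change was at least 1 on this scale, or 2-fold. SKP2 itself, the targeted transcript, had 92.8 TPM in RD shSCR, 7.40 in RD shSKP2, 46.5 in JR1 shSCR and 2.72 in JR1 shSKP2, and changed by -3.48 in RD and -3.67 in JR1. Short structural RNAs took 50.1 to 64.9% of all TPM, more with shSKP2 in each line, and the middle gene of all those compared changed by -0.27 (RD) and -0.21 (JR1). Values relative to these medians are also given, as are values with the structural RNA genes left out before TPM were scaled again.

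Receptor tyrosine kinases are single-pass membrane proteins. Binding of a ligand outside the cell pairs the receptors, which phosphorylate each other and recruit adaptors such as FRS2, GRB2 and SHC1, and these pass the signal to the RAS-MAPK, PI3K and phospholipase C routes. In the muscle lineage FGFR1 and FGFR4 bind FGFs that keep myoblasts dividing, FGFR4 is a known target of PAX3 in muscle progenitors, and MET with its ligand HGF guides migrating muscle precursors and activates satellite cells. FGFR4 is highly expressed and sometimes mutated in rhabdomyosarcoma. PDGFRA and PDGFRB are best known from mesenchymal cells, and the ERBB receptors from epithelium, nerve sheath and muscle spindle development, with ERBB3 depending on a partner such as ERBB2 because its own kinase is weak.

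Of the 10 receptors, FGFR4 was the one that fell in both lines, and the sequences at its start sites are shown for that reason. In the deposited tables the gene lies on chromosome 5 from base 177086915 to base 177098144 (GRCh38). The RefSeq table (GRCh38.p14) has windows of 300 bases, reaching from 250 bases before a start to 50 bases from it, for 8 of the 10 receptors and not for FGFR1 and ERBB3. It gives 2 starts for FGFR4, both on the plus strand. The first, at base 177086915, lies in exon 1 of the canonical GENCODE transcript and the second, at base 177089550, in exon 2. Capitals mark every CANNTG, the E-box core that MYOD and other basic helix-loop-helix factors bind, which reads as CANNTG on both strands.

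FGFR4 first start, chr5:177086665-177086964: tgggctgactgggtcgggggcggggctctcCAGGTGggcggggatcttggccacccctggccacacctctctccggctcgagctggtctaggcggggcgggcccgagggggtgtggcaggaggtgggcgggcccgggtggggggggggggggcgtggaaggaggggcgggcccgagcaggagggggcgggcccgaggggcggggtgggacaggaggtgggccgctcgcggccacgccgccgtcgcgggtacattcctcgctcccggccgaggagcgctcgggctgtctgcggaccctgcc

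FGFR4 second start, chr5:177089300-177089599: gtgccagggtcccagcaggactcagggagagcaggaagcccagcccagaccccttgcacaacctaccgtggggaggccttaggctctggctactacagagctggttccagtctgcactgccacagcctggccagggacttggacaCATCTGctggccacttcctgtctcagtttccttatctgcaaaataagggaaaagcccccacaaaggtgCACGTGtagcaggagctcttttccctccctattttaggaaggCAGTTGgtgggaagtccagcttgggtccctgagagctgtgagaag

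The window at the first FGFR4 start has 78.7% G and C and holds 1 E-box core, with the letters CAGGTG, that begins 220 bases before the start. The window at the second start has 57.3% G and C and holds 3 such cores, the first 105 bases before the start with the letters CATCTG, the next 37 bases before it with the letters CACGTG, and the last just after it with the letters CAGTTG. At least 1 such core is present in 68.7% of the 35116 windows of this length in the table, and 3 or more in 15.3%. The form CAGCTG, often bound by MYOD and counted among these cores, is in neither FGFR4 window and in 17.9% of all windows. Among the other receptors CAGCTG was found 1 time each in the windows of FGFR3, PDGFRB and the second start of PDGFRA. These matches describe the letters of the windows and say nothing of binding.

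FGF receptors were the most abundant of the 4 families. FGFR1 had 56.2 TPM in RD shSCR, 41.5 in RD shSKP2, 51.4 in JR1 shSCR and 24.3 in JR1 shSKP2. FGFR4 had 49.3 TPM in RD shSCR, 12.6 in RD shSKP2, 46.9 in JR1 shSCR and 17.3 in JR1 shSKP2. Both genes were lower with shSKP2 in each line, and the control libraries of the lines lay close together. In the shSCR libraries FGFR1 was above 89.4% of all compared genes in RD and 90.3% in JR1, and FGFR4 above 87.5% and 89.2%.

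**Figure D1:**
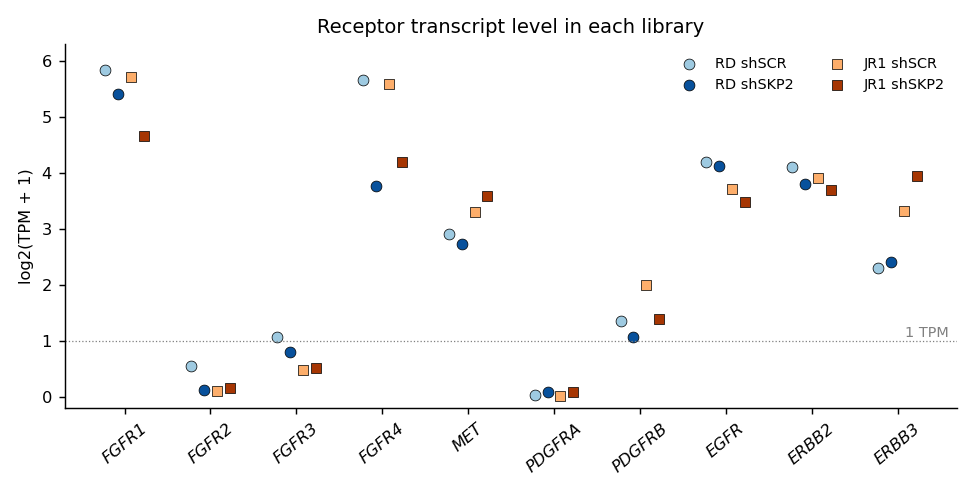
Level of each of the 10 receptors, as log2(TPM + 1), in the 4 libraries (circles for RD, squares for JR1, dark for shSKP2). 1 point is 1 library, and the dotted line marks 1 TPM. FGFR1 and FGFR4 stand highest in the shSCR libraries, FGFR4 is far lower in both shSKP2 libraries, and PDGFRA lies near 0 throughout.

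FGFR4 was 3.70-fold lower with shSKP2 in RD (log2 change -1.89) and 2.62-fold lower in JR1 (-1.39) on the TPM + 1 scale. Set against the median of all genes the changes were -1.62 and -1.17, and with structural RNA genes left out they were -1.54 and -1.13, so FGFR4 stayed past 2-fold on each scale. Of all compared genes 7.37% fell in RD and 9.05% in JR1. Both lines shared a fall for 4.79% and a rise for 0.539% of them, beside 1 receptor (FGFR4) and 0 receptors. With structural RNA genes left out, 3.41% fell and 3.76% rose in RD, and 6.73% fell and 4.71% rose in JR1, and FGFR4 was the 1 receptor past the limit in each line. A change below that of FGFR4 was found in 0.840% of the compared genes in RD and in 3.67% in JR1.

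FGFR1 changed by -0.43 in RD and fell by 1.05 on the log2 scale in JR1, which is 2.07-fold. The JR1 change was close to the limit of 2-fold and was within it on the other scales, at -0.83 relative to the median of all genes and -0.78 without structural RNA genes. In RD the change without structural RNA genes was -0.03. The change of FGFR1 in RD was 0.62 above that in JR1 and the change of FGFR4 0.50 below, and these differences between the lines were not tested. Differences at least as large were found in 9.89% and 16.1% of all compared genes.

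FGFR2 and FGFR3, the other signalling FGF receptors, were barely detected. FGFR2 had 0.46 TPM in RD shSCR, 0.09 in RD shSKP2, 0.08 in JR1 shSCR and 0.11 in JR1 shSKP2. FGFR3 had 1.09 TPM in RD shSCR, 0.74 in RD shSKP2, 0.40 in JR1 shSCR and 0.43 in JR1 shSKP2. Both had a mean under 1 TPM and no change was read from them.

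The ERBB receptors were expressed at an intermediate level, and the 2 with the highest mean over the 4 libraries, EGFR and ERBB2, stayed within 2-fold in each line. EGFR, the receptor for EGF and TGFA, had 17.2 TPM in RD shSCR, 16.4 in RD shSKP2, 12.2 in JR1 shSCR and 10.2 in JR1 shSKP2. ERBB2, which has no known ligand of its own and serves as a partner, had 16.1 TPM in RD shSCR, 12.9 in RD shSKP2, 14.0 in JR1 shSCR and 11.9 in JR1 shSKP2. The log2 changes were -0.07 and -0.23 for EGFR and -0.29 and -0.22 for ERBB2 in RD and JR1. Relative to the median of all genes those of ERBB2 were -0.02 and -0.01, so that ERBB2 moved as the middle gene of each table did. Without structural RNA genes the signs turned, to 0.33 and 0.03 for EGFR and 0.09 and 0.05 for ERBB2.

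ERBB3, which binds neuregulins and signals through its partner, was the receptor with the highest change in each line. It had 3.93 TPM in RD shSCR, 4.28 in RD shSKP2, 8.99 in JR1 shSCR and 14.3 in JR1 shSKP2. The changes of 0.10 in RD and 0.61 in JR1 were under the limit of 2-fold. Without structural RNA genes it was 0.48 and 0.93. In JR1 95.0% of the compared genes had a lower change than ERBB3, and in RD 82.3%. The gene lies on chromosome 12 from base 56080108 to base 56103505.

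MET had 6.49 TPM in RD shSCR, 5.59 in RD shSKP2, 8.88 in JR1 shSCR and 11.1 in JR1 shSKP2. With the TPM as deposited MET thus changed by -0.18 in RD and by 0.29 in JR1, of opposite sign. Relative to the median of all genes it was 0.09 in RD and 0.50 in JR1, and without structural RNA genes 0.18 and 0.58. The sign in RD thus depended on the scaling, and MET stayed under 2-fold on each scale. It lies on chromosome 7 from base 116672196 to base 116798386.

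The PDGF receptors were low. PDGFRB had 1.56 TPM in RD shSCR, 1.10 in RD shSKP2, 2.99 in JR1 shSCR and 1.63 in JR1 shSKP2. With the TPM as deposited it was lower with shSKP2 in each line by less than 2-fold, with changes of -0.29 and -0.60. Relative to the median of all genes these were -0.02 in RD and -0.39 in JR1, and without structural RNA genes -0.08 and -0.50. PDGFRA had between 0.01 and 0.06 TPM in the 4 libraries, the lowest of the 10 receptors in each of them, although its ligand PDGFA was present in all 4.

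**Figure D2:**
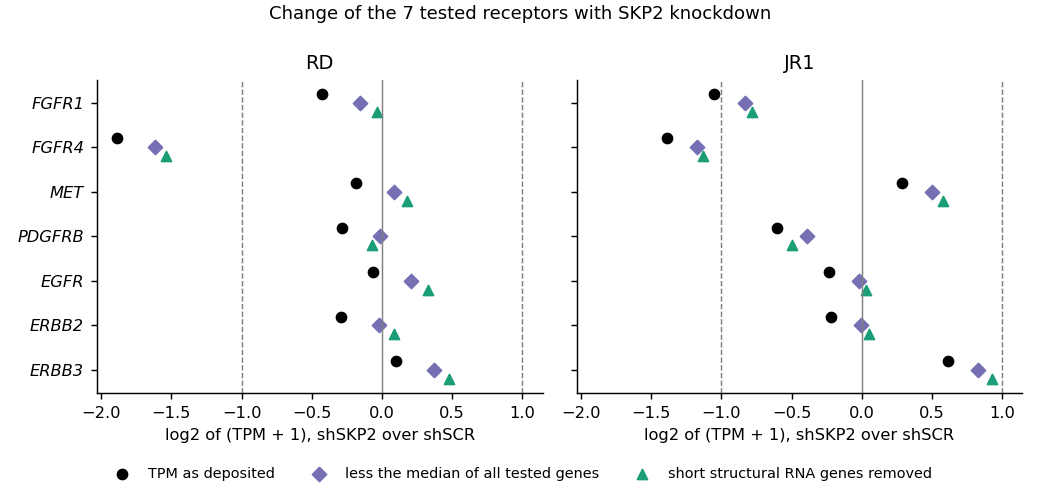
Change with SKP2 knockdown of the 7 receptors with a mean of at least 1 TPM, in RD (left) and JR1 (right), on the log2(TPM + 1) scale, shSKP2 less shSCR. Circles use the TPM as deposited, diamonds are relative to the median of all compared genes, and triangles follow removal of structural RNA genes. Dashed lines mark 2-fold. FGFR4 lies beyond the limit on all 3 scales in both lines, FGFR1 in JR1 only with the TPM as deposited, and ERBB3 has the highest change in each line.

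Of the 7 receptors that were compared, 0 rose and 1 (FGFR4) fell in RD, and 0 rose and 2 (FGFR1 and FGFR4) fell in JR1. Of all genes 1.08% rose in RD and 1.78% in JR1, and 8.45% in RD and 10.8% in JR1 passed the limit in either direction. Counts of 1 and 2 among 7 are too small to set the receptors apart from these shares. The median change of the 7 receptors was -0.29 in RD and -0.23 in JR1, beside -0.27 and -0.21 for all genes. Without structural RNA genes it was 0.09 and 0.03 over the same 7, beside 0.10 and 0.03. The receptors as a list therefore sat at the middle of all genes in each line, with FGFR4 far below and ERBB3 above.

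The make-up of the receptor transcripts within a library does not depend on the scaling. The 10 receptors summed to 152 TPM in RD shSCR, 95.3 in RD shSKP2, 146 in JR1 shSCR and 91.3 in JR1 shSKP2. FGF receptors made up 70.3% of this sum in RD shSCR and 57.6% in RD shSKP2, and 67.7% in JR1 shSCR and 46.2% in JR1 shSKP2. The share of FGFR4 went from 32.3% to 13.2% in RD and from 32.2% to 19.0% in JR1. The share of FGFR1 was higher in RD shSKP2 than in RD shSCR, at 43.5% against 36.9%, and lower in JR1 shSKP2 than in JR1 shSCR, at 26.7% against 35.2%.

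The share of the ERBB receptors went from 24.4% to 35.3% in RD and from 24.1% to 39.8% in JR1. Their summed level was 37.3 TPM in RD shSCR, 33.6 in RD shSKP2, 35.1 in JR1 shSCR and 36.4 in JR1 shSKP2, while that of the FGF receptors was 107, 54.9, 98.8 and 42.2 TPM in the same order. That of MET went from 4.26% to 5.87% in RD and from 6.09% to 12.1% in JR1. FGFR4 and FGFR1 were near parity in the controls, with 0.877 FGFR4 for each FGFR1 in RD and 0.912 in JR1, and this ratio was 0.304 in RD shSKP2 and 0.711 in JR1 shSKP2. The ratio of ERBB3 to FGFR4 was 0.0797 in RD shSCR, 0.340 in RD shSKP2, 0.192 in JR1 shSCR and 0.826 in JR1 shSKP2. The ratio of ERBB3 to ERBB2 was 0.643 in JR1 shSCR and 1.20 in JR1 shSKP2, the 1 library where ERBB3 was the higher, and in RD it was 0.244 and 0.331. These pairs of receptors were chosen after their values were seen.

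**Figure D3:**
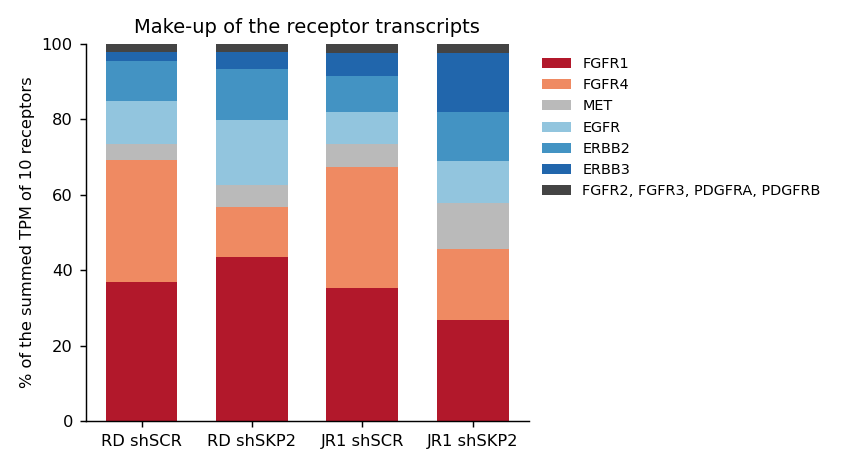
Share of each receptor in the summed TPM of the 10 receptors, in %, for the 4 libraries (1 library a bar). The segment of FGFR4 shrinks from 32.3 to 13.2% in RD and from 32.2 to 19.0% in JR1, that of ERBB3 is largest in JR1 shSKP2, and FGFR2, FGFR3, PDGFRA and PDGFRB together are a thin band.

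Between the lines ERBB3 differed most among the receptors. It was 2.03-fold lower in RD than in JR1 with shSCR (log2 difference -1.02) and 2.90-fold lower with shSKP2 (-1.53). Of all genes 3.45% were lower in RD by at least 2-fold with shSCR and 2.7% with shSKP2, and ERBB3 was the 1 receptor of 7 in each comparison that passed this limit in that direction. No receptor was higher in RD by 2-fold, where 6.5% and 5.39% of all genes were, and in either direction 9.95% and 8.09% of all genes passed. FGFR1 and FGFR4 differed by 0.13 and 0.07 between the lines with shSCR. With shSKP2 FGFR1 was 0.75 higher and FGFR4 0.43 lower in RD than in JR1. The middle gene of all those compared was itself higher in RD, by 0.23 with shSCR and 0.17 with shSKP2. Relative to that gene ERBB3 was -1.25 and -1.71, FGFR1 -0.10 and 0.57 and FGFR4 -0.16 and -0.60. MET was 0.40 lower in RD with shSCR and 0.87 lower with shSKP2, and that last difference reached -1.04 relative to the median of all genes. These comparisons use the same 4 libraries as those of shSKP2 with shSCR.

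Among the 58 human receptor tyrosine kinases, 31 had at least 1 TPM in RD shSCR and in JR1 shSCR, 28 in RD shSKP2 and 30 in JR1 shSKP2. FGFR4 ranked 6 in RD shSCR and 13 in RD shSKP2, and 4 in JR1 shSCR and 9 in JR1 shSKP2. FGFR1 ranked 4 in both RD libraries, 3 in JR1 shSCR and 6 in JR1 shSKP2. ERBB3 ranked 24 in RD shSCR, 20 in RD shSKP2, 17 in JR1 shSCR and 13 in JR1 shSKP2. The kinases with the highest mean outside the 10 were PTK7, a pseudokinase of planar polarity, and the ephrin receptors EPHB4 and EPHA2.

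PTK7 had 109 TPM in RD shSCR, 90.1 in RD shSKP2, 97.7 in JR1 shSCR and 68.6 in JR1 shSKP2. EPHB4 had 56.9, 42.9, 107 and 75.6 TPM in the same order. EPHA2 was higher with shSKP2 in each line, at 60.9 and 107 TPM in RD and 42.1 and 66.1 TPM in JR1. Its changes of 0.80 and 0.64 were under the limit, and without structural RNA genes they were 1.21 and 0.93.

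Of the other 48 kinases 26 were compared. In RD 0 rose and 3 fell, and in JR1 2 rose and 2 fell, counts too small to set these kinases apart from all genes, of which 7.37% fell and 1.08% rose in RD and 9.05% fell and 1.78% rose in JR1. The 2 that fell in both lines were receptors known from blood vessels. FLT1, a VEGF receptor, had 10.1 TPM in RD shSCR, 2.79 in RD shSKP2, 13.7 in JR1 shSCR and 2.62 in JR1 shSKP2. TIE1, the partner of the angiopoietin receptor, had 5.03 TPM in RD shSCR, 0.31 in RD shSKP2, 2.14 in JR1 shSCR and 0.04 in JR1 shSKP2. The third fall in RD was that of FLT4, and the rises in JR1 were those of ALK, from 2.06 to 7.46 TPM, and EPHA7, from 7.11 to 16.8 TPM. FLT4, ALK and EPHA7 are named because the counts are small, after their values were seen. The median change of the 26 was -0.08 in RD and -0.05 in JR1, beside -0.27 and -0.21 for all genes. Without structural RNA genes it was 0.20 and 0.22, beside 0.10 and 0.03.

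Of the 22 FGF genes 5 were compared, and FGF2, the basic fibroblast growth factor that binds FGFR1 and keeps myoblasts from differentiating, fell in both lines. It had 5.45 TPM in RD shSCR, 0.77 in RD shSKP2, 6.71 in JR1 shSCR and 0.73 in JR1 shSKP2. FGF2 thus changed by -1.87 and -2.16, and by -1.97 and -2.43 without structural RNA genes. It was the 1 of the 5 that fell in each line, too few to set the FGF genes apart from all genes. Of all genes 7.37% fell in RD, 9.05% in JR1 and 4.79% in both lines. FGF13, a member of the family that stays inside the cell and does not act through these receptors, had 9.28 TPM in RD shSCR, 13.8 in RD shSKP2, 3.40 in JR1 shSCR and 12.3 in JR1 shSKP2. It rose by 1.59 in JR1, where 1.78% of all genes rose, and changed by 0.53 in RD, or 0.94 without structural RNA genes. The difference between the lines was not tested. FGF11, also intracellular, changed by -0.63 and -0.66.

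FGF5, a secreted ligand, had 4.45 and 6.41 TPM in RD shSCR and shSKP2 and 6.19 and 4.41 TPM in JR1. Its changes were 0.44 in RD and -0.41 in JR1. FGF1, which binds all 4 signalling FGF receptors, had 1.24 and 0.71 TPM in RD and 3.57 and 3.23 TPM in JR1, and is named to complete the 5. The decoy receptor FGFRL1, which binds FGFs without a kinase, had 59.8 and 44.3 TPM in RD and 38.9 and 32.6 TPM in JR1, and KL and KLB, co-receptors for the hormone-like FGFs, were not compared since their means were under 1 TPM.

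HGF, the ligand of MET, had 0.92 TPM in RD shSCR, 1.34 in RD shSKP2, 1.08 in JR1 shSCR and 0.37 in JR1 shSKP2, a mean under the minimum. Of HGF and the 5 proteases and inhibitors that control its activation, SPINT1, an inhibitor of the HGF activator, was compared. It had 0.82 and 1.78 TPM in RD and 2.11 and 1.14 TPM in JR1.

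Among the 4 PDGF genes PDGFA and PDGFC were compared, and neither changed by 2-fold. With 2 genes this says little, since 8.45% of all genes in RD and 10.8% in JR1 did. PDGFA had 33.5 TPM in RD shSCR, 24.9 in RD shSKP2, 26.7 in JR1 shSCR and 20.01 in JR1 shSKP2, above both PDGF receptors in each library. PDGFC had 13.9 and 8.77 TPM in RD and 9.69 and 8.86 TPM in JR1. PDGFB and PDGFD had means under 1 TPM.

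Of the 11 ERBB ligand genes NRG1 and HBEGF were compared, and neither passed the limit with the TPM as deposited. These 2 are too few to set apart from all genes, of which 8.45% in RD and 10.8% in JR1 passed. NRG1, which encodes the neuregulin that ERBB3 binds, had 19.8 TPM in RD shSCR, 19.4 in RD shSKP2, 17.1 in JR1 shSCR and 10.5 in JR1 shSKP2. HBEGF, a ligand of EGFR, had 1.71 and 4.39 TPM in RD and 11.2 and 6.44 TPM in JR1. The changes were 0.99 in RD, just under 2-fold, and -0.71 in JR1, and without structural RNA genes it was 1.51 and -0.49.

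Of 18 adaptors and signalling proteins that bind the active receptors, 16 were compared, and 0 rose and 2 fell in each line, which does not set them apart from all genes, of which 7.37% fell in RD and 9.05% in JR1. GRB10, which binds the insulin and other receptors and mostly restrains them, had 53.2 TPM in RD shSCR, 14.0 in RD shSKP2, 24.8 in JR1 shSCR and 9.53 in JR1 shSKP2. SHC2, a relative of SHC1, had 11.0 and 4.17 TPM in RD and 11.4 and 3.11 TPM in JR1, and without structural RNA genes its change in RD was -0.93, under the limit. SHC1, the most abundant of them, changed by -0.47 in RD and -0.69 in JR1, and PLCG1 by -0.65 and -0.58. PTPN11, which encodes the SHP2 phosphatase, changed by -0.22 and -0.38. Without structural RNA genes these were -0.07 and -0.41 for SHC1, -0.26 and -0.31 for PLCG1 and 0.18 and -0.10 for PTPN11. The median change of the 16 was -0.25 in RD and -0.01 in JR1, beside -0.27 and -0.21 for all genes. Without structural RNA genes it was 0.14 and 0.26, beside 0.10 and 0.03.

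Of 8 genes that restrain the receptors, 7 were compared and 0 passed the limit in either line, beside 8.45% of all genes in RD and 10.8% in JR1, shares at which less than 1 of 7 would pass. ERRFI1, an inhibitor of ERBB kinases, had 61.5 TPM in RD shSCR, 57.8 in RD shSKP2, 135 in JR1 shSCR and 68.5 in JR1 shSKP2, and its change of -0.97 in JR1 was just within 2-fold. LRIG1, which promotes the breakdown of ERBB receptors, changed by -0.35 in RD and -0.82 in JR1. PTPN1, a phosphatase of receptor kinases, changed by 0.25 and 0.06. Without structural RNA genes ERRFI1 changed by 0.31 and -0.69, LRIG1 by 0.03 and -0.57 and PTPN1 by 0.65 and 0.34.

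**Figure D4:**
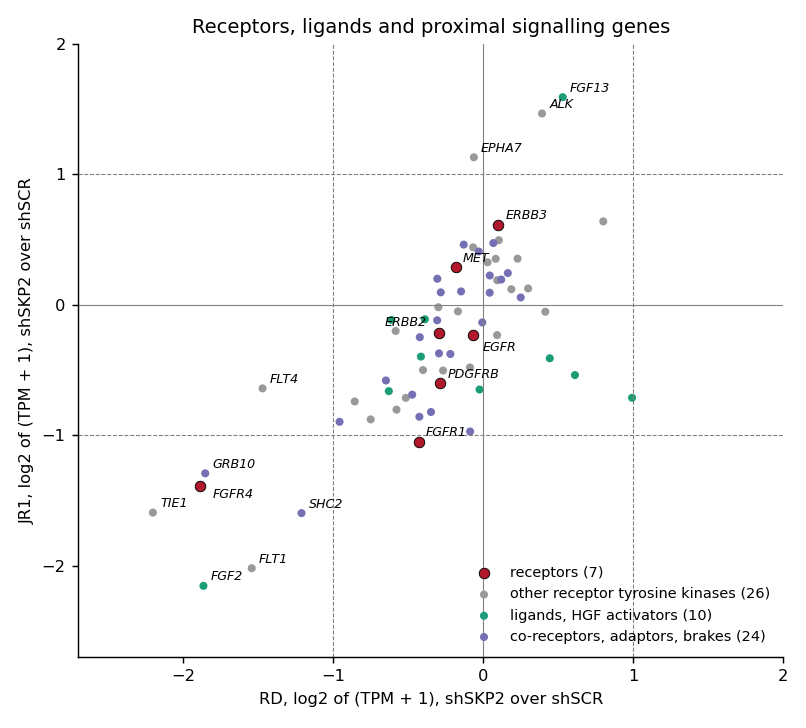
Change with SKP2 knockdown in RD (x axis) and JR1 (y axis), on the log2(TPM + 1) scale, for the compared genes of the lists: the receptors, the other receptor tyrosine kinases, the ligands with HGF activation genes, and the co-receptors, adaptors and brakes. The number of genes is in brackets, and dashed lines mark 2-fold. FGFR4 lies with FGF2, GRB10, SHC2, FLT1 and TIE1 in the corner of genes that fell in both lines.

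For the receptor with the highest mean of each family, the 3 genes with the most similar pattern were taken from 12862 others. Likeness was the Euclidean distance of log2(TPM + 1) over the 4 libraries, each less the mean of the gene, and so few points make it a weak description. Nearest to FGFR1 were FAM72A, PPIH and ABHD12, at distances of 0.0372 to 0.0696. Nearest to MET were PDAP1, GTPBP10 and RHOB, nearest to PDGFRB were LIMS1, TXNDC15 and SPDYE6, and nearest to EGFR were RPUSD1, HOXC6 and PUSL1. FAM72A and SPDYE6 have near-identical copies in the genome, so their values are uncertain.

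The muscle lineage of both lines was visible in the markers. Of 8 muscle lineage genes 7 were compared, with MYOD1 at 87.0 TPM in RD shSCR, 93.8 in RD shSKP2, 101 in JR1 shSCR and 131 in JR1 shSKP2, while MYF5 was listed at 0 in all 4 libraries. PAX7, a satellite cell factor, was the 1 gene of this list that fell, with 10.8 and 3.36 TPM in RD shSCR and shSKP2 and 4.84 and 1.16 TPM in JR1, as did 4.79% of all genes in both lines. On the deposited TPM 0 genes of the list rose in RD and 1 in JR1, beside 1.08% and 1.78% of all genes. The 1 was NCAM1, with a change of 1.32 in JR1 and 0.61 in RD. Without structural RNA genes 3 rose in RD (MYOG, CHRNA1 and NCAM1) and 2 in JR1 (MYOG and NCAM1). Of all genes 3.76% rose in RD and 4.71% in JR1 on that scale. NCAM1 and CHRNA1 are named because the counts are small. MYOG, a factor of differentiating muscle, had 31.6 and 58.4 TPM in RD and 54.0 and 107 TPM in JR1, with changes of 0.87 and 0.98 as deposited and 1.28 and 1.27 without structural RNA genes. CHRND and DES, named to complete the 7, did not share this direction throughout. CHRND was lower with shSKP2 in each line, with changes of -0.76 in RD and -0.60 in JR1. Without structural RNA genes these were -0.40 and -0.32. DES changed by 0.14 in RD and -0.50 in JR1, or 0.54 and -0.22 without structural RNA genes.

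Markers of other cell types were uneven. The defining genes EPCAM and CDH1 of epithelium had at most 0.16 TPM, PECAM1 and CDH5 of endothelium at most 0.05 TPM and PTPRC of blood cells at most 0.01 TPM. The 6 epithelial genes summed to between 88.2 and 215 TPM, nearly all of it the keratin gene KRT18, the 4 endothelial genes to between 0.18 and 5.31 TPM and the 4 blood cell genes to between 2.68 and 3.19 TPM. Of the 7 fibroblast genes FAP was listed at 0 in all 4 libraries and DCN had at most 0.06 TPM, but COL3A1 and COL1A1 were high, and the summed level of the list was 1410 TPM in RD shSCR, 1472 in RD shSKP2, 1366 in JR1 shSCR and 595 in JR1 shSKP2. Of the 5 fibroblast genes compared COL1A1 and THY1 fell in both lines, and of the 3 epithelial genes compared CLDN4 did too. TIE1, counted above, is also the 1 endothelial marker compared. Beside these, 4.79% of all genes fell in both lines. The fibroblast sum moved with PDGFRB in JR1 and not in RD, and its part in the receptor values was not tested. In these bulk libraries, fewer cells that express a receptor and less of its RNA in each cell cannot be told apart.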

How the data were processed

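Poly-A selected directional libraries were read as pairs by the authors, aligned to GRCh38 with STAR 2.7.9a and quantified with RSEM 1.3.2. The deposited values are TPM per gene and library with 2 decimals, which sum to 1000000 in each library. No counts are held in them, so depth and counting error are unknown. The TPM were used as deposited, with 1 TPM added before logarithms and a minimum mean of 1 TPM. Lists of receptors, ligands, adaptors, brakes and cell type markers were written from general knowledge, and the receptors and lists were chosen with earlier results of these data known. The genes named were the receptors, SKP2, the 3 most abundant compared genes of each pathway list and up to 5 that passed 2-fold in both lines, and for the leading receptor of each family the 3 genes nearest in pattern. Alternatives were a pseudocount of 0.1 TPM, centring on the median, removal of 2570 short structural RNA genes by symbol (2989 with RMRP, RPPH1 and transfer RNA genes), no minimum above 0 TPM, a minimum of 5 TPM and a limit of 1.5-fold. The calculation was tested on simulated data. Promoter windows came from RefSeq (GRCh38.p14) and exons from GENCODE release 44. Python 3.11.15, numpy 2.4.6, pandas 2.3.3 and matplotlib 3.10.9 were used. With 1 library per line and hairpin, no test was run within a line, and the lines were not used as replicates of each other.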

Additional observations from a re-analysis of the deposited data

Results flagged for a closer look

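Of the named genes whose mean reached 1 TPM, HBEGF, SPINT1, FGF5, COL3A1 and DES had changes of opposite sign in the lines. This held with the TPM as deposited, relative to the median of all genes and after removal of structural RNA genes. The difference between the lines was not tested, since each change rests on 1 library with shSKP2 and 1 with shSCR. HBEGF changed by 0.99 in RD and -0.71 in JR1, SPINT1 by 0.61 and -0.54, and FGF5 by 0.44 and -0.41. COL3A1 changed by 0.37 and -0.83, and DES by 0.14 and -0.50. Genes under that mean, FGFR2 and HGF among them, were not considered.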

How the results depend on the processing

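A value was taken as moved when it differed by more than 1.5-fold, and a count when it differed by more than 1.5 times, since no replicate spread exists. All 94 alternative values of single receptors and SKP2 stayed within that limit, but the signs of MET, EGFR and ERBB2 in RD and of EGFR and ERBB2 in JR1 turned with the scaling. FGFR4 ranged from -1.96 to -1.52 in RD and from -1.43 to -1.13 in JR1. The number of receptors past 2-fold in JR1 was 2 as reported, 1 (FGFR4) after centring or either removal of structural RNA genes, and 4 with a limit of 1.5-fold. Between RD and JR1 with shSCR it was 1 as reported and 2 (ERBB3 and PDGFRB) with RMRP, RPPH1 and transfer RNA genes removed as well, or with the limit of 1.5-fold. With shSKP2 it was 1 as reported, 2 (ERBB3 and MET) after centring or either removal, and 4 with the limit of 1.5-fold. No paired analysis was possible within a line because each group has 1 library, and a fit over both lines as pairs was not run. Unknown depth leaves the precision of FGFR2, FGFR3, PDGFRA and PDGFRB without a bound.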
